A study of Mus musculus with 10 samples.

Results

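Macrophage, monocyte and neutrophil marker genes were examined in mouse hearts that overexpress SPOP, the substrate adaptor of a cullin ubiquitin ligase. The 36 genes were taken by symbol from a list of myeloid markers, and all 36 had a single row in the deposited table of 24888 genes. RNA sequencing of poly(A) RNA from whole heart tissue gave 5 libraries from conditional knock-in mice (SPOP_CKI, genotype CKI) and 5 from mice with the Cre transgene alone (Cre_control, titled WT with genotype Myh6Cre). In both groups Cre was under the alpha-myosin heavy chain promoter, which acts in cardiomyocytes and not in myeloid cells. All mice were described as male, 8 to 10 weeks old and under sham conditions. Values are reads per gene divided by the authors' size factor of the library, called scaled reads below, and errors are SD over 5 libraries per group.

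Resident macrophages of the heart lie between cardiomyocytes, clear cell debris and carry scavenger and efferocytosis receptors such as CD163, MRC1, LYVE1 and TIMD4. Monocytes enter from the blood, carry LY6C and PLAC8, and can become macrophages in the tissue, while neutrophils carry the calprotectin subunits S100A8 and S100A9 and the receptor for granulocyte colony-stimulating factor. The growth factor CSF1 acts through its receptor CSF1R to keep macrophages alive. In bulk tissue, fewer cells of a type and less RNA per cell cannot be told apart.

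Depth was 15316293 to 17114869 recovered reads per library. Spop itself stood 9.20-fold higher in SPOP_CKI, with no overlap between groups (log2 fold change 3.20, SE 0.17, limma adjusted p = 6.15e-06; exact two-sided permutation p = 0.00794, the smallest that 5 libraries a group allow). Libraries stood apart in 2 ways. First, 3 libraries labelled male, SPOP_CKI 1, SPOP_CKI 3 and Cre_control 5, held 4491 to 6578 scaled reads of Xist and 0 reads of 4 Y-linked genes, against at most 5.31 of Xist and 2522 to 3860 summed over the Y-linked genes in the other 7. Second, SPOP_CKI 3 had 0 reads for 1968 of the 14212 genes tested, against 5 to 61 genes in any other library. Of the 36 markers, 6 were at 0 there (Folr2, Fcgr1, Trem2, Gpnmb, Csf2rb and Arg1), and no other library had any of them at 0 except for Arg1. A count of 0 in SPOP_CKI 3 allows up to 2.63 scaled reads, from counting error only.

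Across the markers, 9 of the 35 tested rose, 1 fell and 25 did not pass (limma on log2(value + 1), adjusted p under 0.05 over all 14212 genes). Of all genes tested, 10.0% were higher and 12.3% lower by the same rule. Arg1 was below the filter of 10 scaled reads in 5 libraries. The 9 that rose were the resident macrophage genes Mrc1 and Timd4, the general macrophage genes Adgre1, Aif1 and Msr1, the neutrophil-associated genes S100a8, S100a9 and Csf3r, and the leukocyte gene Ptprc, by 2.16-fold to 3.74-fold. The 1 that fell was Cd163, by 2.19-fold. None of the 5 recruited monocyte genes passed the limma test, with 2 at an unadjusted p under 0.05, 2 called by edgeR and 3 by DESeq2. The median log2 fold change of the 35 was 0.72, against -0.11 for all genes tested, and quantile normalization moved the median of all genes by 0.14.

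Every SPOP_CKI library lay above every control for 2 of the 35, Mrc1 and Msr1, where 9.01% of all tested genes did so. Every SPOP_CKI library lay below every control for Cd163 alone, where 12.3% of all tested genes did so. For 32 of the 36 genes the highest of the 10 libraries was SPOP_CKI 2 (18 genes) or SPOP_CKI 4 (14 genes). Both of these libraries stood above all controls for 29 genes, and for 12 of the 29 none of the other 3 SPOP_CKI libraries did. The share of all tested genes with these patterns was not counted, so they cannot be called particular to the markers. The median over the 35 genes of the log2 ratio to the control mean was -0.04, 1.92, 0.12, 2.05 and 0.39 in SPOP_CKI 1 to 5, against -0.01, 0.33, -0.41, 0.04 and -0.03 in Cre_control 1 to 5. The spread among SPOP_CKI hearts was therefore wider than that among controls, as the map of all markers by library shows. It was not confined to the markers. Over genes in general, chi-square over its degrees of freedom was 65.2 to 288 between pairs of SPOP_CKI libraries and 12.7 to 84.1 between control pairs.

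**Figure D1:**
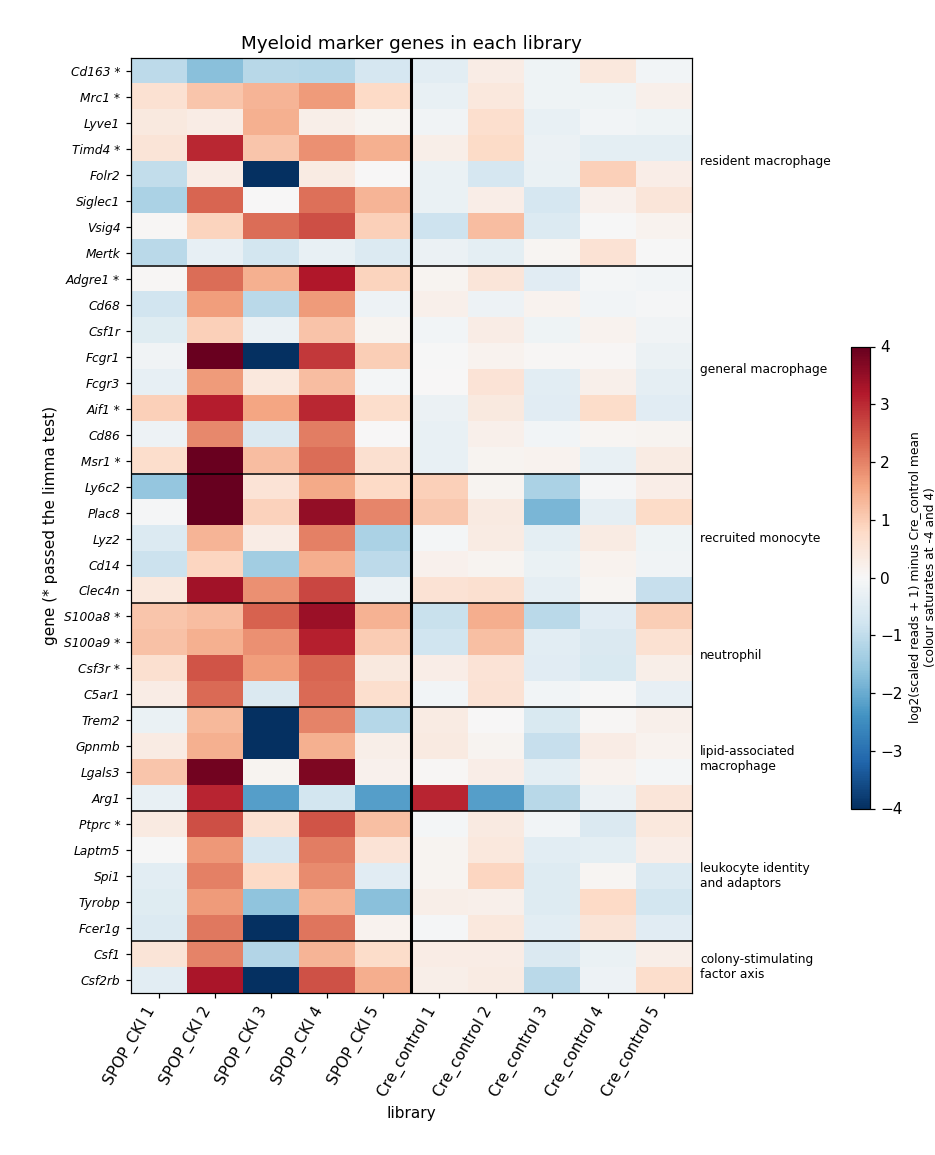
Each row is a marker gene, grouped by role, and each column a library, SPOP_CKI left of Cre_control; colour is log2(scaled reads + 1) minus the Cre_control mean, saturating at -4 and 4, and an asterisk marks genes that passed the limma test. SPOP_CKI 2 and SPOP_CKI 4 are the warmest columns, and the darkest blue cells lie in SPOP_CKI 3, where Folr2, Fcgr1, Trem2, Gpnmb and Csf2rb were at 0 and Fcer1g at 2.63 scaled reads.

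The number of markers called higher depended on single libraries. Without SPOP_CKI 1, 2, 3, 4 or 5 in turn it was 12, 3, 11, 1 and 10, and without Cre_control 1, 2, 3, 4 or 5 it was 1, 5, 1, 2 and 4, while Cd163 was the sole lower call each time. The share of all genes called moved too. Without SPOP_CKI 1 to 5 in turn, 9.97%, 9.13%, 13.7%, 7.53% and 10.6% of all genes were higher. Without Cre_control 1 to 5 in turn, 6.33%, 6.94%, 7.47%, 6.26% and 8.17% were higher. The share lower in these 10 fits was 7.48% to 17.3%. Without the 3 libraries with Xist reads, which left SPOP_CKI 2, 4 and 5 against Cre_control 1 to 4, 18 were higher and 1 lower, and all 10 calls held. In that fit 13.7% of all genes were higher and 17.0% lower. The SPOP_CKI libraries it left out, 1 and 3, had the lowest marker medians of their group (-0.04 and 0.12). The calls it kept and gained can therefore not be read as a check on sex. With all libraries and a term for Xist, added after the values were known, 8 markers were higher and 1 lower. S100a8 and S100a9 lost their calls there and C5ar1 gained one, where 1289 of all 14212 genes were higher and 1561 lower. An adjustment of each library for the GC content of the transcripts, added after the values were known (GC centring), left 3 higher (Aif1, Csf3r and Lgals3) and Cd163 lower, where 9.32% of all genes were higher and 8.67% lower. EdgeR on recovered reads called 11 of the 35 higher and 1 lower (11.8% and 10.4% of all genes), DESeq2 called 16 and 1 (14.9% and 14.3%), and limma with array weights called 17 and 1 (17.1% and 20.3%). The authors' deposited table lists 16 of the 36 as higher and 1 as lower at an adjusted p under 0.05. The share of all its genes listed in each direction was not counted here.

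**Figure D2:**
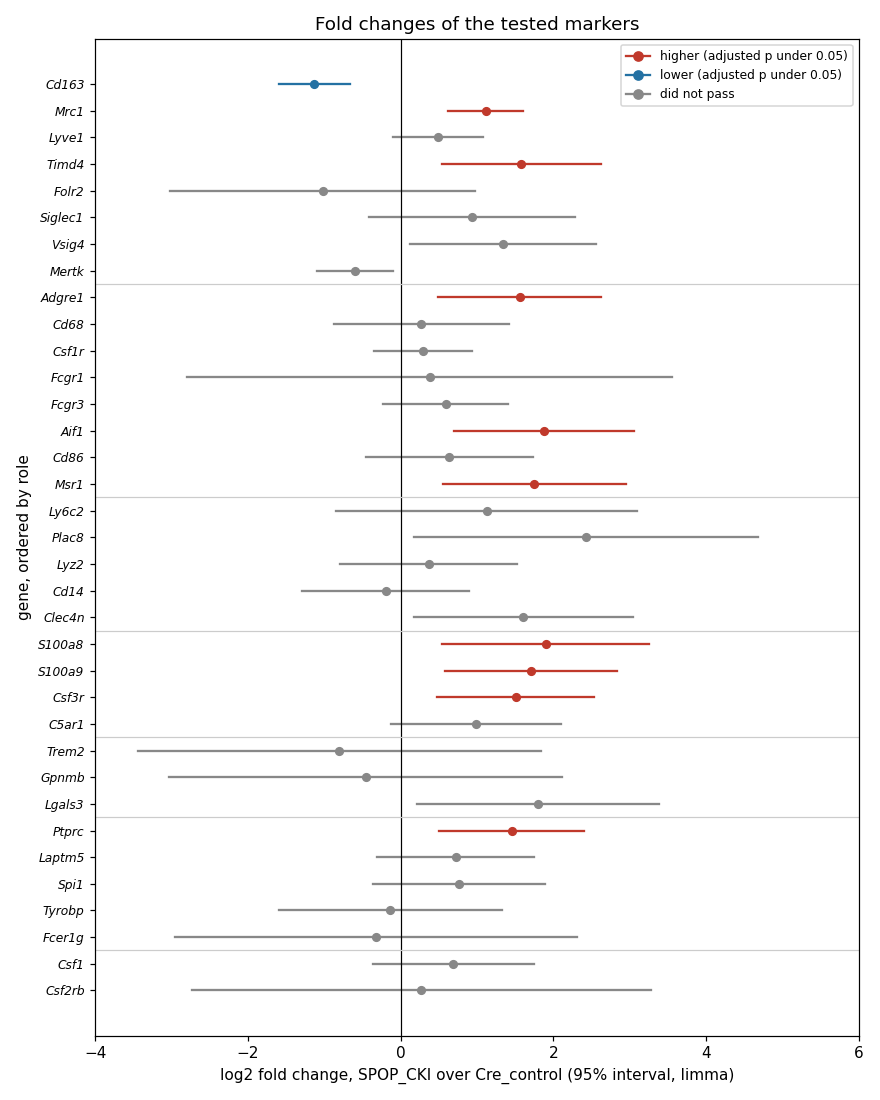
Points are log2 fold changes of SPOP_CKI over Cre_control for the 35 tested markers on the log2(scaled reads + 1) scale, bars are 95% intervals from limma, and genes run down by role; red and blue mark genes that passed in each direction. Intervals are wide for genes at 0 in SPOP_CKI 3, such as Fcgr1 and Csf2rb, and short for Cd163 and Mrc1.

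Among the 8 resident macrophage markers, 2 rose, 1 fell and 5 did not pass, so the group did not move one way (2 higher by edgeR and 4 by DESeq2, with 1 lower by each). Cd163 (ENSMUSG00000008845, mm10 chromosome 6, 124304656 to 124330527, plus strand), the scavenger receptor for haemoglobin bound to haptoglobin, had 484, 312, 466, 452 and 632 scaled reads in SPOP_CKI 1 to 5, against 755, 1238, 885, 1331 and 919.6 in Cre_control 1 to 5. Each SPOP_CKI library was below the lowest control (log2 fold change -1.13, SE 0.22, limma adjusted p = 0.00488). Its call held without any single library, with log2 fold changes of -1.25 to -0.99, and in each of the other alternatives run. Mrc1 (ENSMUSG00000026712, mm10 chromosome 2, 14229392 to 14332057, plus strand), the mannose receptor, had 1024, 1453, 1713, 2210.3 and 1158 scaled reads in SPOP_CKI 1 to 5, against 551, 899, 596, 596 and 777 in Cre_control 1 to 5. All 5 SPOP_CKI libraries were above the highest control (log2 fold change 1.11, SE 0.23, limma adjusted p = 0.00647). That call, too, held without any single library, but not after GC centring (limma adjusted p = 0.0515). Both genes encode scavenger receptors of tissue macrophages, and they moved in opposite directions in the same hearts.

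The promoters of this pair are shown because the genes moved in opposite directions, with RefSeq windows on GRCm38.p6 running from 250 bases before to 50 after the start. Capitals mark GAGGAA or its reverse complement TTCCTC, the core bound by the myeloid factor PU.1, and TTGCNNAA on either strand, letters within the C/EBP consensus. The 2 motifs do not overlap in the sequences shown.
Mrc1 promoter, chr2:14229164-14229463, plus strand: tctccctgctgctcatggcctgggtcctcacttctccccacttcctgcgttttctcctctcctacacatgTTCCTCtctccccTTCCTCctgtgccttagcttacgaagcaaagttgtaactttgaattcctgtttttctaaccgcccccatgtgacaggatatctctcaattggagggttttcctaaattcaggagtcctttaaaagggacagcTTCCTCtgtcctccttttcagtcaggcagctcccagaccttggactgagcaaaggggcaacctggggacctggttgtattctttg
Cd163 promoter, chr6:124304401-124304700, plus strand: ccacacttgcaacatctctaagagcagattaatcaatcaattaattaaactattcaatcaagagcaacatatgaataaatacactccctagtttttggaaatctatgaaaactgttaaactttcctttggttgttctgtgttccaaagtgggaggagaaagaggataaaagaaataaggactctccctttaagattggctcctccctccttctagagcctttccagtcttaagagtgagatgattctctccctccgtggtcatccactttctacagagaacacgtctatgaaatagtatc
The Mrc1 window held 3 copies of the PU.1 core and the Cd163 window held none, and neither held the C/EBP letters. A promoter entry was found for 24 of the 36 markers (29 windows). GAGGAA lay in 15 of those windows (51.7%) and in 28.3% of all 32851 windows in the table, and TTGCNNAA lay in 6 (20.7%) and in 10.8%. A match describes letters only.

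Timd4 (ENSMUSG00000055546, mm10 chromosome 11, 46810800 to 46844332, plus strand), a receptor for phosphatidylserine on dying cells, had 35.2, 203, 53.4, 88.9 and 66.1 scaled reads in SPOP_CKI 1 to 5, against 28.6, 41.8, 20.4, 18.3 and 18.2 in Cre_control 1 to 5. In SPOP_CKI 2 it was highest, and SPOP_CKI 1 lay within the control range. It rose (log2 fold change 1.58, SE 0.48, limma adjusted p = 0.0352), a call lost without SPOP_CKI 2 or 4 or Cre_control 1, 3, 4 or 5 (limma adjusted p 0.0649 to 0.0833, log2 fold change 1.22 to 1.64) and after GC centring (adjusted p = 0.0853). Lyve1, the hyaluronan receptor that lymphatic endothelium also carries, had 595, 553, 1221, 536 and 489 scaled reads in SPOP_CKI 1 to 5, against 416, 719.9, 373, 425 and 405 in Cre_control 1 to 5. A single library in each group stood above the rest, SPOP_CKI 3 and Cre_control 2, and the difference did not pass (log2 fold change 0.49, 95% interval -0.09 to 1.07, limma adjusted p = 0.204).

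Vsig4, a complement receptor of tissue macrophages, averaged 80.1 ± 55.4 scaled reads in SPOP_CKI and 28.7 ± 18.4 in Cre_control (log2 fold change 1.34, 95% interval 0.12 to 2.56, limma adjusted p = 0.103), and it passed without SPOP_CKI 1 (log2 fold change 1.67, limma adjusted p = 0.0494). Siglec1, the sialic acid receptor CD169, averaged 429.6 ± 327 scaled reads in SPOP_CKI and 163 ± 48.2 in Cre_control and did not pass (adjusted p = 0.29). Its SPOP_CKI libraries ranged from 65.0 in SPOP_CKI 1 to 795 in SPOP_CKI 2, and it passed without SPOP_CKI 1 (log2 fold change 1.48, limma adjusted p = 0.0402). Mertk, a receptor tyrosine kinase for uptake of dying cells, averaged 176 ± 37.0 scaled reads in SPOP_CKI and 269 ± 76.0 in Cre_control (log2 fold change -0.60, 95% interval -1.10 to -0.10, limma adjusted p = 0.0807). Folr2, folate receptor beta, averaged 20.8 ± 14.2 scaled reads in SPOP_CKI and 28.2 ± 13.8 in Cre_control with 0 in SPOP_CKI 3 (log2 fold change -1.02, 95% interval -3.02 to 0.98, limma adjusted p = 0.434); the annotation places 2 genes on its opposite strand, and the sources used here do not give the strand setting of the counting.

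**Figure D3:**
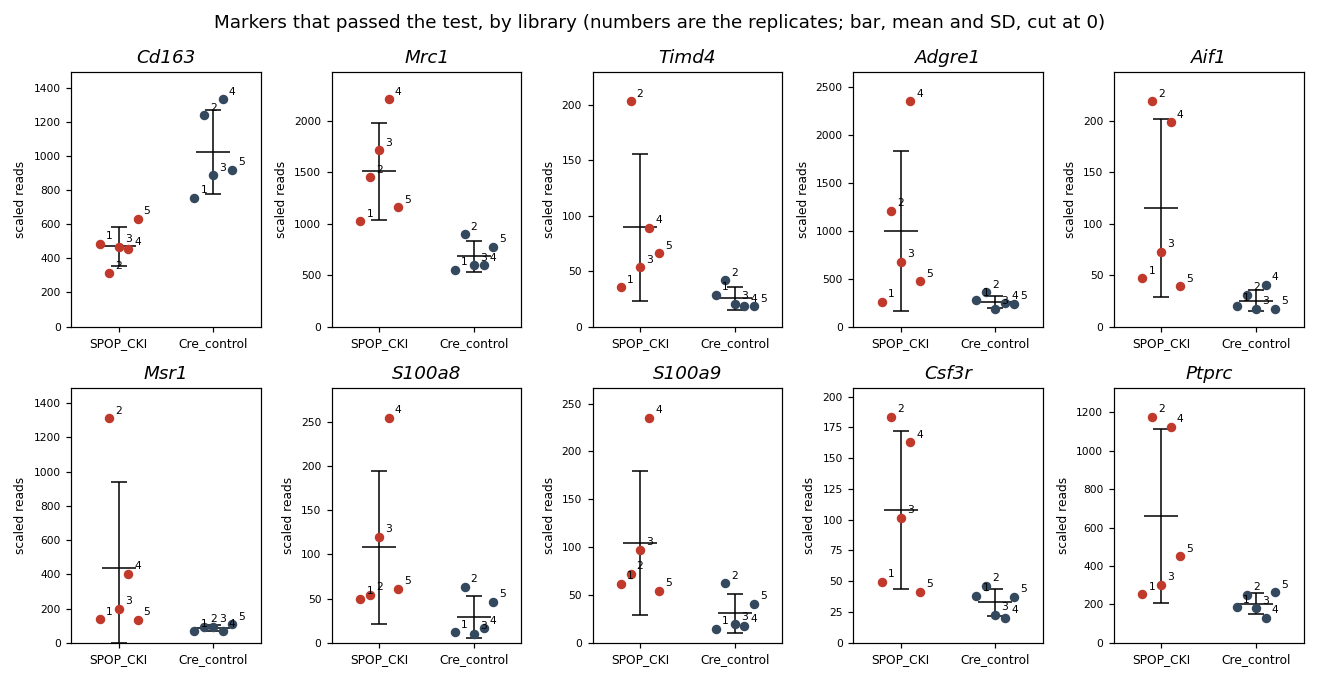
Each panel is a marker that passed the limma test, with scaled reads per library on a linear axis from 0, SPOP_CKI left of Cre_control; numbers name the replicates, and bars give the mean and SD over 5 libraries, cut at 0. Groups do not overlap for Cd163, Mrc1 and Msr1, and SPOP_CKI 2 and SPOP_CKI 4 lie above all other libraries for Timd4, Adgre1, Aif1, Csf3r and Ptprc.

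General macrophage markers, which resident and recruited cells share, numbered 3 of 8 higher and 0 lower, with 5 that did not pass (3 higher by edgeR and 3 by DESeq2; 0 lower at an unadjusted p under 0.05, and 0 by edgeR or DESeq2). Adgre1 (ENSMUSG00000004730, mm10 chromosome 17, 57358691 to 57483527, plus strand), which encodes F4/80, had 261, 1209, 678, 2349.7 and 472 scaled reads in SPOP_CKI 1 to 5, against 276, 358, 187, 241 and 237 in Cre_control 1 to 5. SPOP_CKI 4 was highest and SPOP_CKI 1 lay within the control range. It rose (log2 fold change 1.56, SE 0.49, limma adjusted p = 0.0414), a call lost without SPOP_CKI 2, 3 or 4 or Cre_control 1, 2, 3, 4 or 5 (limma adjusted p 0.0505 to 0.0872, log2 fold change 1.15 to 1.68), with no filter, and after GC centring (adjusted p = 0.0543). Aif1 (ENSMUSG00000024397, mm10 chromosome 17, 35170991 to 35176068, minus strand), the calcium-binding protein IBA1, had 47.0, 219, 72.7, 199 and 39.0 scaled reads in SPOP_CKI 1 to 5, against 20.2, 31.1, 17.0, 40.4 and 17.1 in Cre_control 1 to 5. SPOP_CKI 5 lay just below the highest control. It rose (log2 fold change 1.88, SE 0.54, limma adjusted p = 0.0285), a call lost without SPOP_CKI 2 or 4 or Cre_control 1, 3 or 5 (limma adjusted p 0.0595 to 0.071, log2 fold change 1.56 to 1.82). Msr1 (ENSMUSG00000025044, mm10 chromosome 8, 39581685 to 39642673, minus strand), scavenger receptor A, had 138, 1312, 199.7, 402 and 133 scaled reads in SPOP_CKI 1 to 5, against 67.9, 92.3, 94.1, 68.2 and 107 in Cre_control 1 to 5. Every SPOP_CKI library was above every control, and SPOP_CKI 2 was far above the other 9. It rose (log2 fold change 1.75, SE 0.55, limma adjusted p = 0.0406), a call lost without SPOP_CKI 4 or Cre_control 1, 2, 3, 4 or 5 (limma adjusted p 0.0591 to 0.0921, log2 fold change 1.63 to 1.84), with no filter, and after GC centring (adjusted p = 0.111).

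Csf1r, the receptor gene for CSF1, had 854, 2272, 1004, 2609 and 1279 scaled reads in SPOP_CKI 1 to 5, against 1091, 1443, 1061, 1294 and 1079 in Cre_control 1 to 5, so that SPOP_CKI 2 and 4 were above all controls and SPOP_CKI 1 and 3 below them (log2 fold change 0.30, 95% interval -0.35 to 0.94, limma adjusted p = 0.486). Cd68, a lysosomal protein of macrophages, had 92.2, 506, 74.4, 518 and 136 scaled reads in SPOP_CKI 1 to 5, against 181, 137, 172, 147 and 151 in Cre_control 1 to 5. Here too SPOP_CKI 2 and 4 were above all controls and the other 3 below them (log2 fold change 0.27, 95% interval -0.88 to 1.42, limma adjusted p = 0.732). The Fc receptor gene Fcgr1 averaged 269.9 ± 340.1 scaled reads in SPOP_CKI and 52.4 ± 5.21 in Cre_control, from 0 in SPOP_CKI 3 to 819 in SPOP_CKI 2 (log2 fold change 0.38, 95% interval -2.79 to 3.55, limma adjusted p = 0.865). Fcgr3, a further Fc receptor, averaged 535 ± 325 scaled reads in SPOP_CKI and 317 ± 90.8 in Cre_control, and the costimulatory gene Cd86 averaged 183 ± 151 scaled reads in SPOP_CKI and 87.6 ± 11.8 in Cre_control (adjusted p = 0.27 and 0.37). Hmgxb3 overlaps Csf1r on the opposite strand, at a mean of 258 scaled reads in SPOP_CKI hearts and 272 in Cre_control hearts.

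Of the 5 recruited monocyte markers none passed, and 4 of 5 had positive log2 fold changes, with a median of 1.13. Ly6c2, the surface marker of inflammatory monocytes, had 5.42, 373, 26.3, 53.1 and 31.9 scaled reads in SPOP_CKI 1 to 5, against 35.0, 19.3, 6.80, 17.3 and 21.4 in Cre_control 1 to 5. SPOP_CKI 2 and 4 alone were above all controls (log2 fold change 1.13, 95% interval -0.84 to 3.10, limma adjusted p = 0.379). Its near-identical neighbour Ly6c1, which endothelium also expresses, had 2943 ± 794 scaled reads in SPOP_CKI and 5646 ± 996 in Cre_control. Ly6c1 fell (log2 fold change -0.96, SE 0.20, limma adjusted p = 0.0075), with every SPOP_CKI library below every control, and its call held without any single library. How reads were shared between the copies was not tested, so Ly6c2 is uncertain. Plac8, a gene of LY6C-high monocytes, averaged 110.1 ± 174 scaled reads in SPOP_CKI and 8.23 ± 5.45 in Cre_control (log2 fold change 2.43, 95% interval 0.18 to 4.68, limma adjusted p = 0.11). SPOP_CKI 2 held 417 scaled reads and the other SPOP_CKI libraries 6.32 to 85.4. Its call was gained without SPOP_CKI 1 (log2 fold change 3.05, limma adjusted p = 0.0494).

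Lyz2, lysozyme of monocytes, macrophages and neutrophils, had the most reads of the 36. It had 2405, 9037, 4374, 14264 and 1463 scaled reads in SPOP_CKI 1 to 5, against 3329.7, 4409, 2714, 4414 and 3149.9 in Cre_control 1 to 5, with SPOP_CKI 2 and 4 above all controls and SPOP_CKI 1 and 5 below them (log2 fold change 0.37, 95% interval -0.79 to 1.53, limma adjusted p = 0.637). Per kilobase of gene length as deposited, Lyz2 had a mean level of 4794 in SPOP_CKI hearts and 2738 in Cre_control hearts, against 328 in SPOP_CKI and 244 in Cre_control for Csf1r, and 199 in SPOP_CKI and 59.1 in Cre_control for S100a9. Its neighbour copy Lyz1 had 22.5 ± 16.2 scaled reads in SPOP_CKI and 8.42 ± 5.98 in Cre_control. Clec4n, the fungal pattern receptor dectin-2, averaged 135 ± 119 scaled reads in SPOP_CKI and 31.8 ± 13.6 in Cre_control (log2 fold change 1.61, 95% interval 0.17 to 3.05, limma adjusted p = 0.0984), and it passed without SPOP_CKI 5 (log2 fold change 2.07, limma adjusted p = 0.0302). Cd14, the lipopolysaccharide co-receptor, averaged 274 ± 240.3 scaled reads in SPOP_CKI and 231 ± 31.1 in Cre_control (log2 fold change -0.20, 95% interval -1.29 to 0.89, limma adjusted p = 0.794).

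Of the 4 neutrophil-associated markers, 3 rose and 0 fell (2 higher by edgeR and 4 by DESeq2; 0 lower at an unadjusted p under 0.05, and 0 by edgeR or DESeq2). S100a8 (ENSMUSG00000056054, mm10 chromosome 3, 90668978 to 90670035, plus strand) and S100a9 (ENSMUSG00000056071, mm10 chromosome 3, 90692632 to 90695721, minus strand) encode the pair of subunits that form calprotectin and lie next to each other on chromosome 3. S100a8 had 49.7, 54.5, 120.0, 254 and 61.4 scaled reads in SPOP_CKI 1 to 5, against 11.7, 63.3, 10.2, 16.3 and 46.1 in Cre_control 1 to 5. S100a9 had 61.4, 71.9, 97.2, 235 and 54.3 scaled reads in SPOP_CKI 1 to 5, against 14.9, 62.2, 19.3, 17.3 and 40.7 in Cre_control 1 to 5. In both genes SPOP_CKI 4 was highest and SPOP_CKI 3 next, both above all controls, while SPOP_CKI 1 and 5 lay within the control range. SPOP_CKI 2 lay within that range for S100a8 and above it for S100a9, and Cre_control 2 and 5 stood above the other controls for both. S100a8 rose (log2 fold change 1.90, SE 0.62, limma adjusted p = 0.047), a call lost without SPOP_CKI 2, 4 or 5 or Cre_control 1, 3 or 4 (limma adjusted p 0.0503 to 0.111, log2 fold change 1.52 to 2.07). That call was also lost with edgeR (adjusted p = 0.0523), with no filter, with a filter at 50, with the term for Xist and after GC centring. S100a9 rose (log2 fold change 1.71, SE 0.51, limma adjusted p = 0.0345), a call lost without SPOP_CKI 4 or Cre_control 1, 3 or 4 (limma adjusted p 0.0754 to 0.0856, log2 fold change 1.36 to 1.60), with the term for Xist and after GC centring (adjusted p = 0.0504 and 0.0577).

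The promoters of this pair are shown because the genes moved together, with capitals and windows as for Mrc1 and Cd163.
S100a8 promoter, chr3:90668821-90669120, plus strand: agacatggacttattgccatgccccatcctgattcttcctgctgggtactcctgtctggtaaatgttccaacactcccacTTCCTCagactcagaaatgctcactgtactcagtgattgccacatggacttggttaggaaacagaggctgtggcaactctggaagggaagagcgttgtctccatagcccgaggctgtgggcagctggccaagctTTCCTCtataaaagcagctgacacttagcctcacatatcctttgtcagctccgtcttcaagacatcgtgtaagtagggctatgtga
S100a9 promoter, chr3:90695672-90695971, minus strand: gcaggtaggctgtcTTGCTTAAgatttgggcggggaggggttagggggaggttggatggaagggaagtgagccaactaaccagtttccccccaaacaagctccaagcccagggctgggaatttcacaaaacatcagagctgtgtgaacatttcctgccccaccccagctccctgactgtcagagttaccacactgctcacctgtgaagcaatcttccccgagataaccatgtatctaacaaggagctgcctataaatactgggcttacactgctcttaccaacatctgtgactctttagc
The S100a8 window held 2 copies of the PU.1 core and none of the C/EBP letters, and the S100a9 window held 1 match to TTGCNNAA and none to GAGGAA.

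Csf3r (ENSMUSG00000028859, mm10 chromosome 4, 126024550 to 126044440, plus strand), the receptor for granulocyte colony-stimulating factor, which monocytes also carry, had 49.7, 183, 102, 163 and 41.3 scaled reads in SPOP_CKI 1 to 5, against 38.2, 46.1, 22.7, 20.2 and 37.5 in Cre_control 1 to 5. SPOP_CKI 2, 3 and 4 were well above all controls, SPOP_CKI 1 slightly above, and SPOP_CKI 5 within their range. It rose (log2 fold change 1.51, SE 0.47, limma adjusted p = 0.0401), a call lost without SPOP_CKI 2 or 4 or Cre_control 1, 2, 3, 4 or 5 (limma adjusted p 0.0549 to 0.0974, log2 fold change 1.26 to 1.64) and with no filter. C5ar1, the receptor for the complement fragment C5a on neutrophils and macrophages, averaged 270.4 ± 209.6 scaled reads in SPOP_CKI and 104 ± 27.2 in Cre_control (log2 fold change 0.99, 95% interval -0.12 to 2.10, limma adjusted p = 0.179), and it passed without SPOP_CKI 3 (log2 fold change 1.38, limma adjusted p = 0.0229).

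Further neutrophil genes were scarce. Of 14 others listed, 13 were in the table and 2 passed the filter, Lcn2 at 151 ± 141 scaled reads in SPOP_CKI against 197 ± 66.3 in Cre_control and Mmp9 at 21.8 ± 21.3 scaled reads in SPOP_CKI against 11.5 ± 3.39 in Cre_control. Neither passed the limma test (adjusted p = 0.303 and 0.976; 0 at an unadjusted p under 0.05, 0 by edgeR and 0 by DESeq2). The defining granule and surface genes Ly6g, Ngp, Camp, Ltf and Mpo stayed under 10 scaled reads in all 10 libraries. Ly6g was at 2.61 in SPOP_CKI 4 and at 0 in the other 9. The chemokine receptor gene Cxcr2, below the filter, had 2.71, 42.1, 0, 47.0 and 23.6 scaled reads in SPOP_CKI 1 to 5, against 6.37, 1.07, 2.27, 0.961 and 7.50 in Cre_control 1 to 5. Clec4d, a C-type lectin of neutrophils and monocytes that is named here after its values were seen, had 24.4, 160.3, 0, 69.7 and 7.09 scaled reads in SPOP_CKI 1 to 5, against 4.24, 17.2, 5.67, 5.77 and 4.29 in Cre_control 1 to 5. In neither gene was there a test, and 4 SPOP_CKI libraries or fewer reached the filter value. The summed level of the 13 genes was 36.8 to 718 scaled reads in SPOP_CKI and 161 to 353 in Cre_control, of which Lcn2, which other cells of the heart can also express, was the most abundant in the mean. In the S100a8, S100a9 and Csf3r result, the part of neutrophils against other cells with these transcripts was not tested.

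Of 4 lipid-associated macrophage markers, which mark phagocytes that take up lipid and debris, none passed the limma test among the 3 tested (1 at an unadjusted p under 0.05, 1 called by edgeR and 1 by DESeq2, each time Lgals3). Trem2, a lipid-sensing receptor, had 48.8, 146, 0, 238 and 26.0 scaled reads in SPOP_CKI 1 to 5, against 74.3, 59.0, 38.5, 60.6 and 68.6 in Cre_control 1 to 5. SPOP_CKI 2 and 4 were above all controls, while SPOP_CKI 1 lay within and SPOP_CKI 3 and 5 below their range (log2 fold change -0.80, 95% interval -3.44 to 1.84, limma adjusted p = 0.651). Its mean was higher in SPOP_CKI and its fitted log2 change negative, and without SPOP_CKI 3 the fitted change was 0.47 (adjusted p = 0.532). Gpnmb, a transmembrane glycoprotein of lysosome-rich macrophages, had 66.9, 144, 0, 143 and 62.6 scaled reads in SPOP_CKI 1 to 5, against 67.9, 56.9, 27.2, 65.4 and 57.9 in Cre_control 1 to 5. SPOP_CKI 2 and 4 were again above all controls and SPOP_CKI 3 below them, with SPOP_CKI 1 and 5 within their range (log2 fold change -0.46, 95% interval -3.04 to 2.12, limma adjusted p = 0.798), with a log2 fold change of 0.86 without SPOP_CKI 3 (adjusted p = 0.081).

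Lgals3, galectin-3, which activated fibroblasts also express, averaged 489 ± 519 scaled reads in SPOP_CKI and 76.4 ± 13.1 in Cre_control. SPOP_CKI 2 and 4 held 1097 and 1014 scaled reads, the other 3 between 82.3 and 164, and controls 56.7 to 91.2 (log2 fold change 1.80, 95% interval 0.21 to 3.38, limma adjusted p = 0.0949). It passed without SPOP_CKI 3 or without SPOP_CKI 5 (log2 fold change 2.22, limma adjusted p = 0.0381 and log2 fold change 2.20, limma adjusted p = 0.048). Arg1, arginase of alternatively activated macrophages, was below the filter, at 37.2 scaled reads in SPOP_CKI 2, 37.1 in Cre_control 1 and at most 5.36 elsewhere.

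Leukocyte identity and signalling genes had 1 of 5 higher and 0 lower (1 higher by edgeR and 1 by DESeq2; 0 lower at an unadjusted p under 0.05, and 0 by edgeR or DESeq2). Ptprc (ENSMUSG00000026395, mm10 chromosome 1, 138062861 to 138175708, minus strand), the pan-leukocyte phosphatase CD45, had 253, 1175, 301, 1125 and 451 scaled reads in SPOP_CKI 1 to 5, against 185, 251, 180.3, 132 and 264 in Cre_control 1 to 5. SPOP_CKI 1 lay within the control range and the other 4 above it. It rose (log2 fold change 1.45, SE 0.43, limma adjusted p = 0.0342), a call lost without SPOP_CKI 2 or 4 or Cre_control 1, 2, 3 or 4 (limma adjusted p 0.0537 to 0.0871, log2 fold change 1.17 to 1.54) and after GC centring (adjusted p = 0.124). Laptm5, a lysosomal protein of blood cells, averaged 968 ± 708 scaled reads in SPOP_CKI and 473 ± 121 in Cre_control (adjusted p = 0.282). Spi1, which encodes the myeloid transcription factor PU.1, averaged 281 ± 205 scaled reads in SPOP_CKI and 137 ± 59.1 in Cre_control (adjusted p = 0.298).

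Tyrobp and Fcer1g encode small signalling adaptors that pair with TREM2 and with Fc receptors. Tyrobp averaged 214 ± 207 scaled reads in SPOP_CKI and 159 ± 68.0 in Cre_control (log2 fold change -0.14, 95% interval -1.59 to 1.32, limma adjusted p = 0.896). Fcer1g averaged 336 ± 335 scaled reads in SPOP_CKI and 165 ± 51.8 in Cre_control (log2 fold change -0.32, 95% interval -2.95 to 2.31, limma adjusted p = 0.862), with 2.63 in SPOP_CKI 3, which is 3 reads, and 694 and 698 in SPOP_CKI 2 and 4. Without SPOP_CKI 3 the log2 fold changes were 0.24 and 0.96, and neither passed (adjusted p = 0.808 and 0.199).

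Neither gene of the colony-stimulating factor axis passed the limma test (0 at an unadjusted p under 0.05, 0 by edgeR and 0 by DESeq2). Csf1, the macrophage growth factor, had 767, 2111, 236, 1381 and 883 scaled reads in SPOP_CKI 1 to 5, against 657, 650.1, 359, 446 and 625 in Cre_control 1 to 5. SPOP_CKI 3 was below all controls and the other 4 were above them (log2 fold change 0.69, 95% interval -0.36 to 1.74, limma adjusted p = 0.315). It passed without SPOP_CKI 3 (log2 fold change 1.15, adjusted p = 0.0115). Csf2rb, the shared beta chain of the receptors for interleukin 3, interleukin 5 and granulocyte-macrophage colony-stimulating factor, averaged 169 ± 177 scaled reads in SPOP_CKI and 47.7 ± 19.3 in Cre_control, from 0 in SPOP_CKI 3 to 428 in SPOP_CKI 2 (log2 fold change 0.27, 95% interval -2.74 to 3.27, limma adjusted p = 0.901). Its near-identical copy Csf2rb2 had 65.0, 602, 237, 284 and 96.8 scaled reads in SPOP_CKI 1 to 5, against 37.1, 84.8, 9.07, 30.8 and 30.0 in Cre_control 1 to 5, and rose (log2 fold change 2.60, SE 0.66, limma adjusted p = 0.0175). With reads shared between such copies in a way that was not tested, both genes are uncertain.

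Set side by side, the recruited monocyte genes had a higher median in SPOP_CKI 2 than the resident macrophage genes. The general macrophage, leukocyte and colony-stimulating factor medians were also above the resident macrophage median there, at 2.09, 2.01 and 2.62. The difference was thus not particular to the monocyte genes. The median log2 ratio to the control mean over the 5 recruited monocyte genes was -0.56, 3.37, 0.54, 2.01 and -0.24 in SPOP_CKI 1 to 5. For the 8 resident macrophage genes it was -0.46, 0.60, 0.56, 1.03 and 0.45, and for the 4 neutrophil-associated genes 0.87, 1.84, 1.75, 2.72 and 0.85. The median was thus above 0 in all 5 SPOP_CKI libraries for the neutrophil-associated genes and in 3 of 5 for the recruited monocyte genes. The 2 further neutrophil genes tested, Lcn2 and Mmp9, did not share this. Their median was -0.40, 1.14, -2.96, 0.92 and -0.48 in SPOP_CKI 1 to 5. For the resident macrophage genes SPOP_CKI 1 alone of its group was below 0. In Cre_control 1 to 5 the neutrophil-associated median was -0.45, 0.88, -0.44, -0.52 and 0.43, so that Cre_control 2 stood above SPOP_CKI 1 and 5. The recruited monocyte median was 0.59, 0.32, -0.38, 0.06 and -0.15 in these controls. The resident macrophage median was -0.27, 0.36, -0.25, 0.08 and 0.06. Single genes differed: in SPOP_CKI 3, C5ar1 had 68.3 scaled reads and Cd14 86.7, against control means of 104 and 231. The differences between these groups of genes were not tested.

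**Figure D4:**
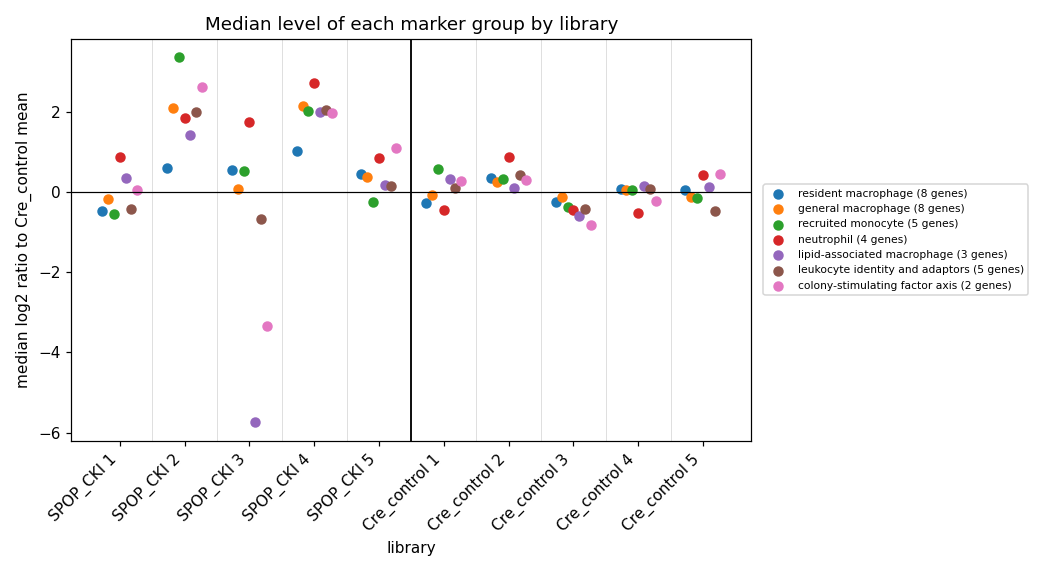
Each point is the median, over the tested genes of a role, of the log2 ratio of a library to the Cre_control mean, with SPOP_CKI libraries left of Cre_control. In SPOP_CKI 2 and 4 all 7 roles lie above 0, and in SPOP_CKI 3 the lipid-associated macrophage and colony-stimulating factor medians lie far below 0, with genes at 0 reads in both.

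Further myeloid genes were grouped by function. Of 14 other macrophage genes tested, 2 were higher and 0 lower (limma; 5 higher by edgeR and 6 by DESeq2; 0 lower at an unadjusted p under 0.05 or by either tool). These were Itgam, the integrin CD11b, at 138 ± 122 scaled reads in SPOP_CKI against 24.0 ± 15.1 in Cre_control (log2 fold change 2.19, adjusted p = 0.0391), and Ms4a7, at 238 ± 242 scaled reads in SPOP_CKI against 48.1 ± 17.5 in Cre_control (log2 fold change 1.79, adjusted p = 0.0459). The count was 0 without SPOP_CKI 2 or 4 or Cre_control 1, 3, 4 or 5, it was 1 without Cre_control 2 and 3 without SPOP_CKI 5, and it was 4 without SPOP_CKI 1 or 3. Of 10 other monocyte genes, 3 were higher and 0 lower (limma; 5 higher by edgeR and 5 by DESeq2; 0 lower at an unadjusted p under 0.05, 0 by edgeR and 1 by DESeq2). Vcan, the proteoglycan versican, which stromal cells also make, rose most, at 2284 ± 1113 scaled reads in SPOP_CKI against 264 ± 96.9 in Cre_control (log2 fold change 3.05, limma adjusted p = 0.000525), and held without any single library. Ms4a4c, at 98.1 ± 95.3 scaled reads in SPOP_CKI against 8.36 ± 6.52 in Cre_control, and F13a1, the coagulation factor XIII A chain, at 1884 ± 399 scaled reads in SPOP_CKI against 1071 ± 403 in Cre_control, also rose (adjusted p = 0.0259 and 0.022). Ms4a4c lost its call without SPOP_CKI 2 or 4 or Cre_control 1, 3 or 5 (limma adjusted p 0.0523 to 0.0663, log2 fold change 2.49 to 2.91), and F13a1 without SPOP_CKI 4 or Cre_control 1, 3 or 4 (limma adjusted p 0.0541 to 0.0621, log2 fold change 0.75 to 0.81). The chemokine receptor gene Ccr2, named here after its values were seen, is in both lists and counts in both totals. It averaged 345 ± 362 scaled reads in SPOP_CKI, highest in SPOP_CKI 2, and 67.5 ± 29.9 in Cre_control. It did not pass (log2 fold change 1.84, limma adjusted p = 0.0569, and 0.154 after GC centring). EdgeR and DESeq2 called it higher (adjusted p = 0.0237 and 0.000922).

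Of 19 genes of phagocytosis and Fc receptor signalling tested, 2 were higher and 0 lower (limma; 4 higher by edgeR and 5 by DESeq2; 0 lower at an unadjusted p under 0.05 or by either tool). Sirpa, the receptor for CD47, stood at 1079.7 ± 483 scaled reads in SPOP_CKI against 506 ± 36.5 in Cre_control, and Axl, a receptor tyrosine kinase for dying cells that fibroblasts also carry, at 3965 ± 1395 scaled reads in SPOP_CKI against 2299 ± 245 in Cre_control (adjusted p = 0.0242 and 0.0411). The count was 0 without Cre_control 1, 3 or 4, it was 1 without SPOP_CKI 2, 4 or 5 or Cre_control 2 or 5, and it was 4 without SPOP_CKI 1 and 7 without SPOP_CKI 3. Of 10 other myeloid regulators and ligands tested, Csf2rb2 was higher and Klf4, a factor of monocytes and endothelium, was lower, at 924 ± 168 scaled reads in SPOP_CKI against 1386 ± 162 in Cre_control (log2 fold change -0.59, adjusted p = 0.022). The Klf4 call was lost without SPOP_CKI 4 or Cre_control 1, 2 or 4 (limma adjusted p 0.0545 to 0.0616, log2 fold change -0.58 to -0.52). Of 10 other lipid-associated macrophage genes, 2 fell and 0 rose (limma; 2 lower by edgeR and 2 by DESeq2; 0 higher at an unadjusted p under 0.05, 1 by edgeR and 2 by DESeq2). The fatty acid handling genes Fabp5 and Cd36, which endothelium and cardiomyocytes also express, stood at 359 ± 63.4 scaled reads in SPOP_CKI against 704 ± 256 in Cre_control and 36231 ± 12962 scaled reads in SPOP_CKI against 64999.9 ± 11311 in Cre_control (adjusted p = 0.0216 and 0.0329). Fabp5 lost its call without Cre_control 2 or 4 (limma adjusted p 0.0521 to 0.0611, log2 fold change -0.81 to -0.75), and Cd36 without SPOP_CKI 4 or Cre_control 1, 2, 3 or 5 (limma adjusted p 0.0649 to 0.0759, log2 fold change -0.93 to -0.84).

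Markers of other cells were measured in the same libraries. Fibroblast markers had 2 of 10 higher, Postn and Lum, and 0 lower (limma; 5 higher by edgeR and 5 by DESeq2; 0 lower at an unadjusted p under 0.05 or by either tool), and their summed level was 56623 to 156934 scaled reads in SPOP_CKI and 57581 to 74011 in Cre_control, highest in SPOP_CKI 4. The count was 1 without SPOP_CKI 2 or 4 or without any one control, and 3 without SPOP_CKI 1, 3 or 5. Their median log2 ratio was 0.56, 0.82, 0.31, 1.59 and -0.01 in SPOP_CKI 1 to 5. Endothelial markers had 5 of 10 lower, Fabp4, Egfl7, Tie1, Cdh5 and Pecam1, with a summed level of 27667 to 33091 scaled reads in SPOP_CKI and 50059 to 64922 in Cre_control. Cardiomyocyte markers had 5 of 12 lower and 2 higher, with a summed level of 390481 to 686553 scaled reads in SPOP_CKI and 657071 to 857944 in Cre_control. Erythroid and platelet markers had 3 of 6 tested lower, Hba-a1, Hbb-bs and Alas2, with a summed level of 4359.6 to 8265 scaled reads in SPOP_CKI and 12801 to 26278 in Cre_control. After GC centring, 0 of 10 fibroblast markers and 1 of 14 other macrophage genes were higher, with 1 of 10 other monocyte genes and 4 of 19 phagocytosis genes, and 3 of 10 endothelial markers, 3 of 12 cardiomyocyte markers and 2 of 6 erythroid and platelet markers were lower. Klf4 lost its call there (limma adjusted p = 0.55). The part of these shifts in the myeloid results was not tested.

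Lymphoid, dendritic and mast cell markers gave no calls by limma without array weights, by edgeR or by DESeq2 in 14 tested genes with all libraries in the fit. Of the 10 T and natural killer cell markers 2 passed the filter, Cd4 and Trac, and the summed level was 0 to 166 scaled reads in SPOP_CKI and 30.6 to 132 in Cre_control. Of the 8 B cell markers 3 passed the filter, and of the 9 dendritic cell markers 3. Of the 8 mast cell markers 6 passed the filter and 1, Tpsb2, was lower at an unadjusted p under 0.05 (log2 fold change -1.96, limma adjusted p = 0.0975). Without SPOP_CKI 3, Kit was higher and Tpsb2 lower (limma adjusted p = 0.0169 and 0.0483). Without SPOP_CKI 2, Hdc was lower (adjusted p = 0.00866), and without the 3 libraries with Xist, Kit was higher (adjusted p = 0.0211). With array weights all 3 of these mast cell genes passed. No gene of the other 3 lists had an unadjusted p under 0.05. Of 8 proliferation genes 5 were tested and 0 passed (limma; 1 lower at an unadjusted p under 0.05, 0 by edgeR and 0 by DESeq2; 1 lower by limma without SPOP_CKI 3 or 4), with a summed level of 38.5 to 958 scaled reads in SPOP_CKI and 161 to 395 in Cre_control, highest in SPOP_CKI 4.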

How the data were processed

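RNA was measured in 10 whole-heart libraries, grouped by their titles. The submitters' processing notes name featureCounts 1.5.0-p3 for counting, DESeq2 1.20.0 for the comparison and the build mm10. The sources used here give no aligner, annotation release or strand setting. Each deposited library column is a signal, the reads of a gene over that library's size factor. From it whole reads were recovered for 100% of values (tolerance 0.001). The authors also deposited group means, a log2 fold change and p-values per gene. Depth limits each value, and intervals and floors cover counting error only.

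Values were compared as log2(value + 1) in limma 3.58.1 under R 4.3.3 (trend, robust) with a term for genotype and no other. Genes needed at least 10 scaled reads in at least 5 libraries, which left 14212. P-values are two-sided and Benjamini-Hochberg adjusted, with a threshold of 0.05. This scale understates changes of low genes. Single values were compared by exact permutation in SciPy 1.17.1. The procedure was tested on simulated data. Alternatives were edgeR 4.0.16 and DESeq2 1.42.0 on recovered reads, other scalings, pseudocounts and filters, array weights, a replicate block, libraries left out, a term for Xist and GC centring from GENCODE M21 transcripts (99.9% of identifiers matched). Fits without libraries kept the same genes. Libraries of a group always differed by more than sampling noise (chi-square over its degrees of freedom at least 12.7). No label states that each library is a separate animal; the spread behind every p-value is that between libraries and may be technical.

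The markers and lists were chosen with earlier results of these data known. All 36 markers are named, with every library's value for those that passed and for defining markers. From other lists, up to 4 called genes with the largest change were to be named, or the 2 with the smallest p. The text departs from this in places. It names 5 endothelial genes, for instance, and no gene of the cardiomyocyte, B cell, dendritic cell or proliferation lists.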

Additional observations from a re-analysis of the deposited data

Results flagged for a closer look

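A sample far from the others of its group was seen in 5 of 74 groups of 5 libraries examined on the log2 scale, where chance gives about 5%. Lyve1 was at 1221 scaled reads in SPOP_CKI 3, against 595 in the next SPOP_CKI library, and at 719.9 in Cre_control 2, against 425 in the next control. Folr2 was at 0 in SPOP_CKI 3, against 12.6 in the next lowest SPOP_CKI library. Gpnmb was at 0 in SPOP_CKI 3, against 62.6 in the next lowest SPOP_CKI library, and at 27.2 in Cre_control 3, against 56.9 in the next lowest control. Of the 5, 3 lay in SPOP_CKI 3, the library with 1968 tested genes at 0.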

How the results depend on the processing

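The number of markers called higher was 9 in the main limma fit. It was 5 with no filter and 5 with a filter at 50 (3 called markers were then not tested). With GC centring it was 3, of which Lgals3 was not among the 9. It was 17 with array weights, 18 without the 3 libraries with Xist, 16 with DESeq2 and 1 to 12 with a single library left out. It stayed within 8 to 11 with TMM scaling, quantile normalization, the other pseudocounts, a term for Xist and edgeR, and the lower call, Cd163, held in all 23 alternatives. Over all genes, array weights gave 2429 higher and 2891 lower against 1421 and 1747, and leaving out a library gave 889 to 1944 higher and 1063 to 2456 lower. The replicate block gave 1310 and 1636, and the term for Xist 1289 and 1561. TMM scaling gave 1352 and 1769, and quantile normalization 1876 and 1935. A pseudocount of 5 gave 1456 and 1903, and one of 0.5 gave 1404 and 1701. With other numbers of genes tested, no filter gave 1084 and 1530 and a filter at 50 gave 1415 and 1730. The log2 fold change of Spop kept its call in all 23, at 2.98 to 3.40. The labels number the hearts 1 to 5 in each group. Deviations of same-numbered libraries correlated at 0.03 to 0.16 and 2 of 5 SPOP_CKI libraries matched their own number best. No label states a pairing, and whether same-numbered libraries share a litter or batch was not tested. With the replicate block 6 markers were higher and 1 lower, S100a8, S100a9 and Csf3r losing their calls. No called marker changed sign in any alternative. Markers that had not passed changed sign as follows, in log2 fold change: with array weights Folr2 0.088, Cd14 0.43, Trem2 0.75, Gpnmb 0.83, Tyrobp 0.59 and Fcer1g 1.13; without the libraries with Xist Folr2 0.28, Cd14 0.39, Trem2 0.77, Gpnmb 1.07, Tyrobp 0.30 and Fcer1g 1.35; with the term for Xist Cd14 0.0042, Tyrobp 0.12 and Fcer1g 0.26; with GC centring Cd14 0.10 and Tyrobp 0.25; by edgeR on recovered reads Cd14 0.26, Trem2 0.63, Gpnmb 0.62, Tyrobp 0.45 and Fcer1g 1.04; by DESeq2 on recovered reads Cd14 0.25, Trem2 0.61, Gpnmb 0.60, Tyrobp 0.43 and Fcer1g 1.03; with quantile normalization Gpnmb 0.38, Tyrobp 0.0085 and Fcer1g 0.31. With a single library left out, sign changes were seen within these ranges: Cd68 -0.089 to 0.61, Fcgr1 -0.51 to 1.91, Lyz2 -0.043 to 0.78, Cd14 -0.61 to 0.10, Trem2 -1.50 to 0.47, Gpnmb -0.93 to 0.86, Tyrobp -0.60 to 0.25, Fcer1g -0.93 to 0.96, Csf2rb -0.48 to 1.71. The GC centring and the term for Xist were chosen after the data were seen. The cause of these changes was not tested. Markers near 10 scaled reads, such as Plac8, Arg1 and Folr2 in single libraries, are limited by depth.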
